A study of Homo sapiens with 2 samples.

Results

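Peaks of the transcription factor PROX1 were examined at the loci of 4 growth factor receptors, EGFR, ERBB2, MET and IGF1R, in SW480R cells. PROX1 is a homeobox protein needed for lymphatic vessels, liver and lens to form, and Wnt signalling induces it in some colorectal tumours. The established line SW480 came from a human colorectal adenocarcinoma, and SW480R cells are a subpopulation of it. Chromatin immunoprecipitation with a goat antibody to human PROX1, followed by sequencing (ChIP-seq), was set against input DNA, the chromatin before immunoprecipitation. Each kind was 1 library, and the ChIP library was a pool of 3 independent immunoprecipitations, so no spread between replicates could be measured. A peak was taken as a member when its centre lay in the gene or within about 50 kb of it on the hg18 build. This gave 35 of the 23450 peaks of the deposited list, of which 23417 were nuclear.

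All 4 genes encode receptor tyrosine kinases, which sit in the cell membrane and act in pairs. They signal to cell growth and survival through the RAS-MAPK and PI3K-AKT pathways. EGFR binds epidermal growth factor and related ligands. ERBB2 (HER2) has no known soluble ligand and acts as the partner of other ERBB receptors. MET is the receptor for hepatocyte growth factor, and IGF1R for the insulin-like growth factors. EGFR is a drug target in colorectal cancer, and amplified ERBB2 or MET is found in some of these tumours.

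No hg18 gene models were used here. Gene bounds were therefore taken as the span less 50 kb on each side, which the rounding of the spans leaves uncertain by about 1 kb. Each of these genes runs in the direction of increasing coordinates. Exons, introns and untranslated regions were not placed, and PROX1 peak sequences are not shown because no hg18 genome was used here. Coordinates are those of the list, unchanged. Tags are the reads counted in a peak, and the fold was read as the authors' own ratio of ChIP over input tags. These values rank peaks within this list only.

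Near the outermost starts of the 4 receptor genes, PROX1 peaks were few, as the density of the spans also gives. Counts this small cannot tell a likeness from a depletion or an enrichment. Within 10 kb of such a start, known to about 1 kb, lay 2 of the 35 peaks, against 2.63 at the density of the spans. An ERBB2 peak at 9.55 kb and an IGF1R peak at 10.1 kb lie within that uncertainty of the limit. This small count could therefore be lower or higher. Within 5 kb lay 1, against 1.31, and within 1 kb 0. Further starts of EGFR and ERBB2 were not placed on hg18 and are not in these counts. The peak nearest to an outermost start was 2.21 kb before that of IGF1R, and at EGFR the nearest was 47.1 kb past the outermost start. The 250 bases before the outermost start are shown for these 2 genes, the nearest and the farthest by this measure. They come from RefSeq on GRCh38.p14, plus strand, and these coordinates cannot be set beside the hg18 ones. Capitals mark GGGCGG and its reverse complement CCGCCC, the GC box bound by SP1-family factors.
IGF1R (chr15:98648289-98648538): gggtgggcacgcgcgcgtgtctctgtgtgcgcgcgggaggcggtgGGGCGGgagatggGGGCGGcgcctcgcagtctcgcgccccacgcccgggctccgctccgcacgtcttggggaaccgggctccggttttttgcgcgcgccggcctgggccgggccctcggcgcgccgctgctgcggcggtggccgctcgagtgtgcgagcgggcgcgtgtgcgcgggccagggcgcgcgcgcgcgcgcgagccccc
EGFR (chr7:55018767-55019016): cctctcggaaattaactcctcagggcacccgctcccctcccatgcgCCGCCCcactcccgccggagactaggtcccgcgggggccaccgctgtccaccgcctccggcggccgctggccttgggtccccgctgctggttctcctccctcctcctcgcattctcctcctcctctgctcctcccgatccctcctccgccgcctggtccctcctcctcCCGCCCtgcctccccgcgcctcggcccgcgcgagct
Both windows were rich in G and C, with 81.2% for IGF1R and 73.6% for EGFR, against a median of 58.0% over 35116 RefSeq windows of the same length. The windows of MET (68.4%) and ERBB2 (65.6%) were also above that median. Each of the IGF1R, EGFR and MET windows held 2 matches to the GC box on either strand, and that of ERBB2 held 0. A match was found in 42.6% of all windows. None of these 4 windows held TATAAA on either strand, which 10.7% of all windows did. The window of a second EGFR start in RefSeq differed on each count, with 38.8% G and C, 0 matches to the GC box and 2 to TATAAA. A letter match is a description and does not show a bound site.

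**Figure D1:**
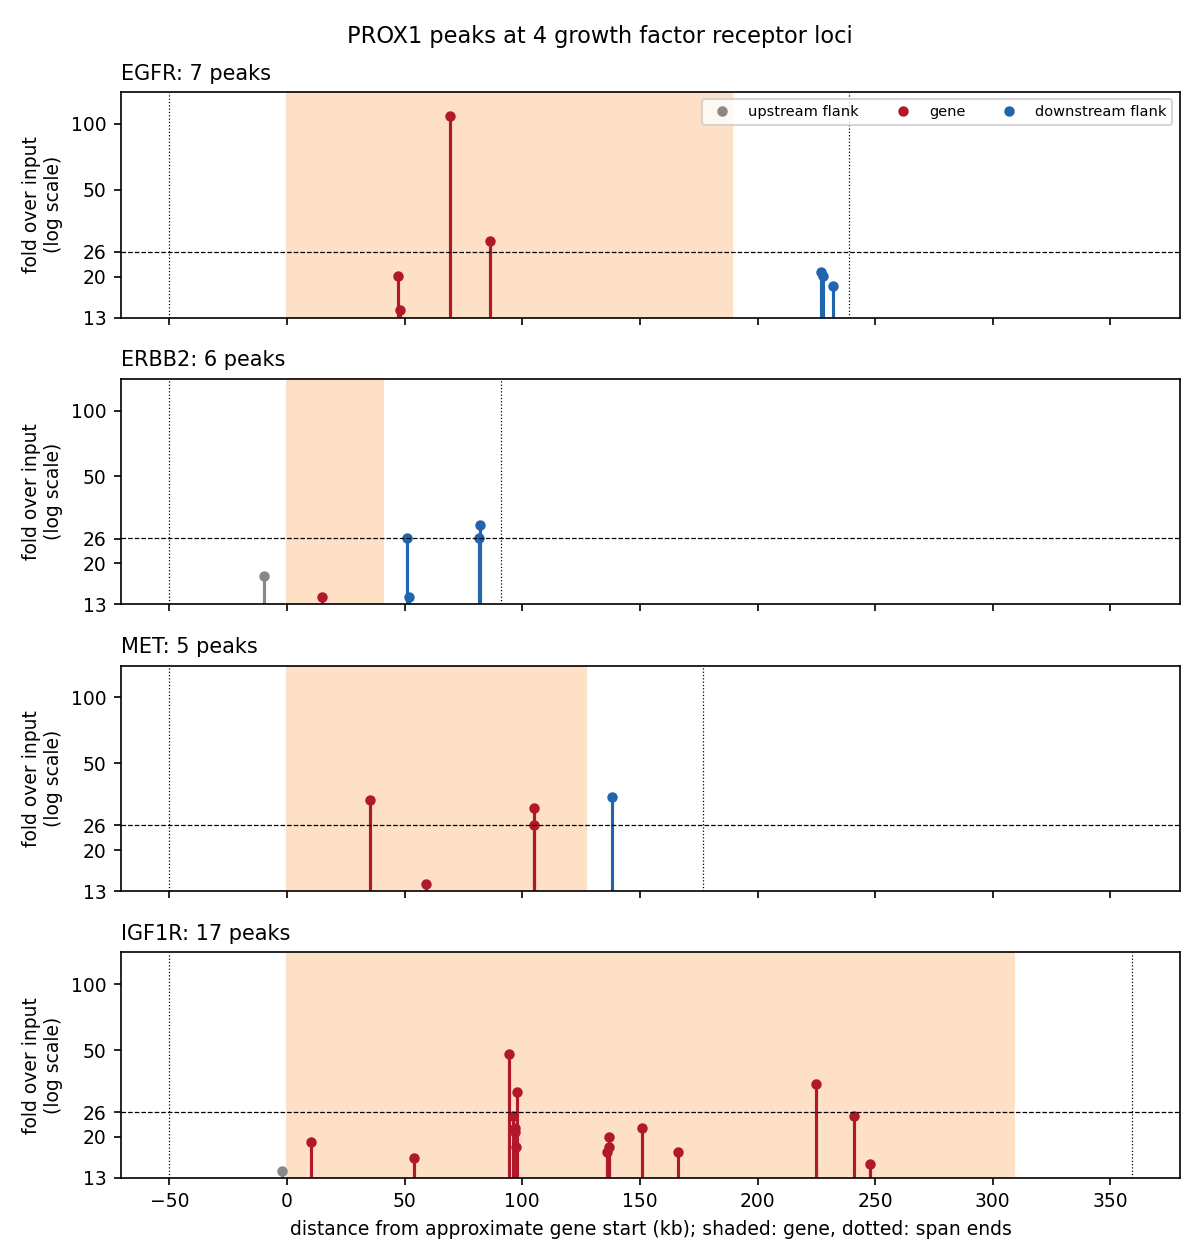
PROX1 peaks at the 4 receptor loci, with distance from the approximate gene start (kb) across and fold over input (log scale) up. Stems start at the lowest fold of the list, shading marks the gene, dotted lines mark the ends of the span, the dashed line is the fold of 26.06, and colours give upstream flank, gene and downstream flank. The tallest stem is the EGFR peak at a fold of 109.27, and most IGF1R peaks lie inside the gene.

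PROX1 peaks were listed more densely at each of the 4 receptor loci than over the genome as a whole. At MET this was within counting error even with peaks counted as independent. The IGF1R span (chromosome 15, 96960000 to 97369000, 409 kb) held 17 peaks, or 0.0416 per kb. The ERBB2 span (chromosome 17, 35048000 to 35189000, 141 kb) held 6, or 0.0426 per kb. The EGFR span (chromosome 7, 55004000 to 55293000, 289 kb) held 7, or 0.0242 per kb. The intervals of these 3, given below, lie above the genome rate when neighbouring peaks are counted as independent. At EGFR the 7 peaks formed only 4 places when joined within 10 kb, or 2.89 times the genome rate of places so joined. Whether that excess goes beyond counting error was not tested. The MET span (chromosome 7, 116049000 to 116276000, 227 kb) held 5 peaks, or 0.0220 per kb. The nuclear genome held 0.00760 per kb, which is 1 peak in 132 kb. Relative to that rate, ERBB2 stood at 5.60 times (exact Poisson 95% interval 2.05 to 12.2), IGF1R at 5.47 times (3.19 to 8.75) and EGFR at 3.19 times (1.28 to 6.56). MET stood at 2.90 times, with an interval of 0.941 to 6.76 that includes the genome rate. Together the spans held 35 peaks in 1066 kb, against 8.10 at the genome rate, a ratio of 4.32 (3.01 to 6.01).

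The intervals cover counting error only and count neighbouring peaks as independent, so they are too narrow for clustered peaks. The labels name no molecular identifiers, so repeated copies of 1 molecule may be among the tags. No test between conditions was possible with 1 library of each kind.

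A description that keeps the clustering sets each span beside all tiles of its own length across the nuclear genome. At least 17 peaks were found in 2.04% of 7013 tiles as long as the IGF1R span, and at least 6 in 4.40% of 20305 tiles as long as the ERBB2 span. For EGFR, 10.2% of 9920 tiles held 7 peaks or more, and for MET, 12.8% of 12630 tiles held 5 or more. Tiles as full as the EGFR and MET spans were thus common. The median tile held 2 peaks at the IGF1R length, 0 at the ERBB2 length and 1 at both the EGFR and the MET length. Tiles were not matched for gene content.

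**Figure D2:**
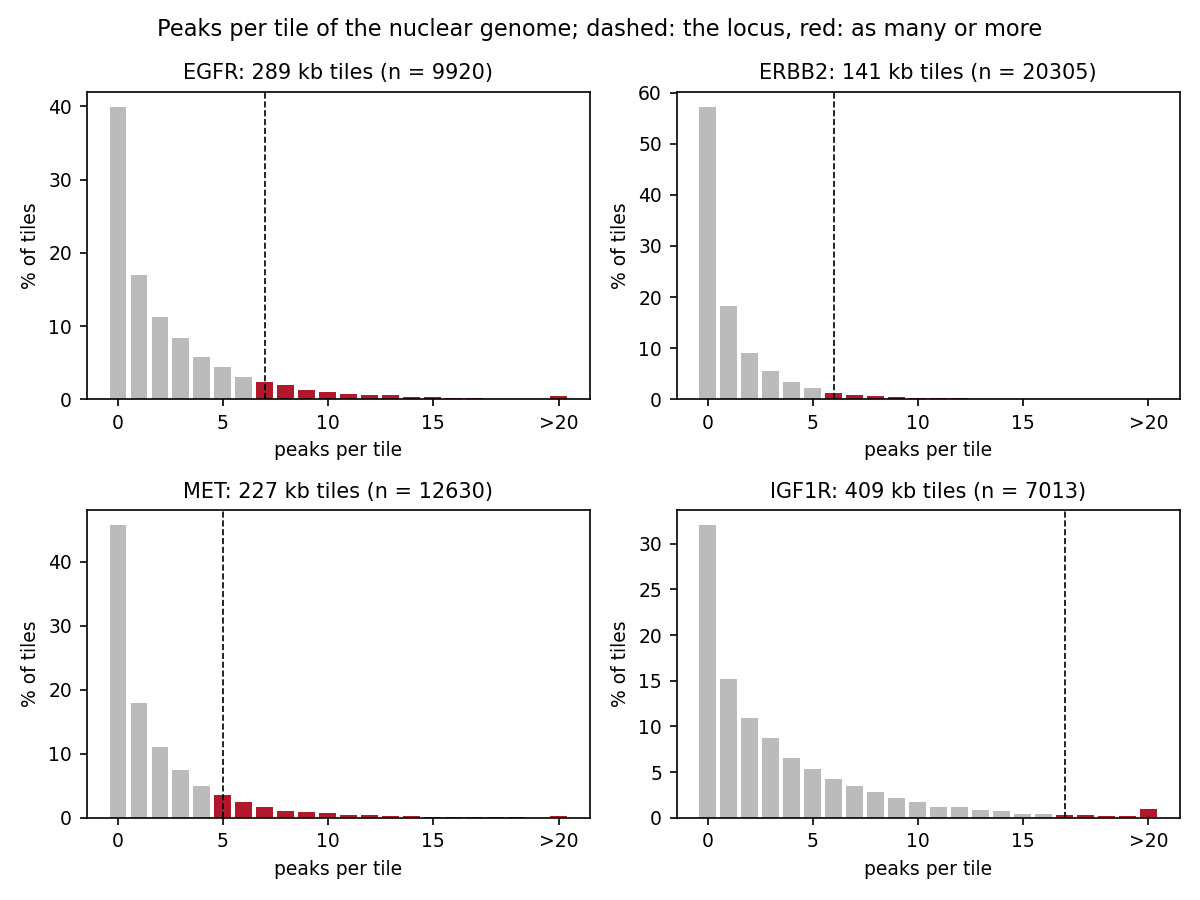
Share of genome tiles (per cent) by the number of PROX1 peaks in a tile, for tiles as long as each receptor span. The dashed line marks the receptor span and red bars hold as many peaks or more: 10.2% of tiles for EGFR, 4.40% for ERBB2, 12.8% for MET and 2.04% for IGF1R.

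The surroundings differed between the loci. Around ERBB2, the 1 Mb on either side held 39 peaks, or 0.0195 per kb (95% Poisson interval 0.0139 to 0.0267), and 33 of these lay on the downstream side. These surroundings were themselves at 2.57 times the genome rate, and the ERBB2 span was 2.18 times as dense as they were. Around IGF1R the same distance held 12 peaks, or 0.00600 per kb (0.00310 to 0.0105), and the span was 6.93 times as dense. The IGF1R peaks thus stood in a stretch that was otherwise at 0.789 times the genome rate. EGFR had 18 peaks in its surroundings and was 2.69 times as dense as they were, and MET had 13 and was 3.39 times as dense. Relative to the rate of its own chromosome, IGF1R stood at 5.81 times (3.38 to 9.30), ERBB2 at 3.18 (1.17 to 6.92), EGFR at 2.78 (1.12 to 5.72) and MET at 2.52 (0.820 to 5.89). Chromosome 17, which carries ERBB2, held 0.0134 peaks per kb, and chromosomes 7 and 15 held 0.00873 and 0.00716.

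Differences in density between the 4 receptors were within counting error. ERBB2 and IGF1R had a ratio of 1.02 (exact 95% interval 0.331 to 2.72). The ratio of ERBB2 to MET, the widest apart, was 1.93 (0.491 to 8.0), and that of IGF1R to EGFR was 1.72 (0.676 to 4.89). All 6 pairwise intervals included equality, which does not show that the densities were alike.

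**Figure D3:**
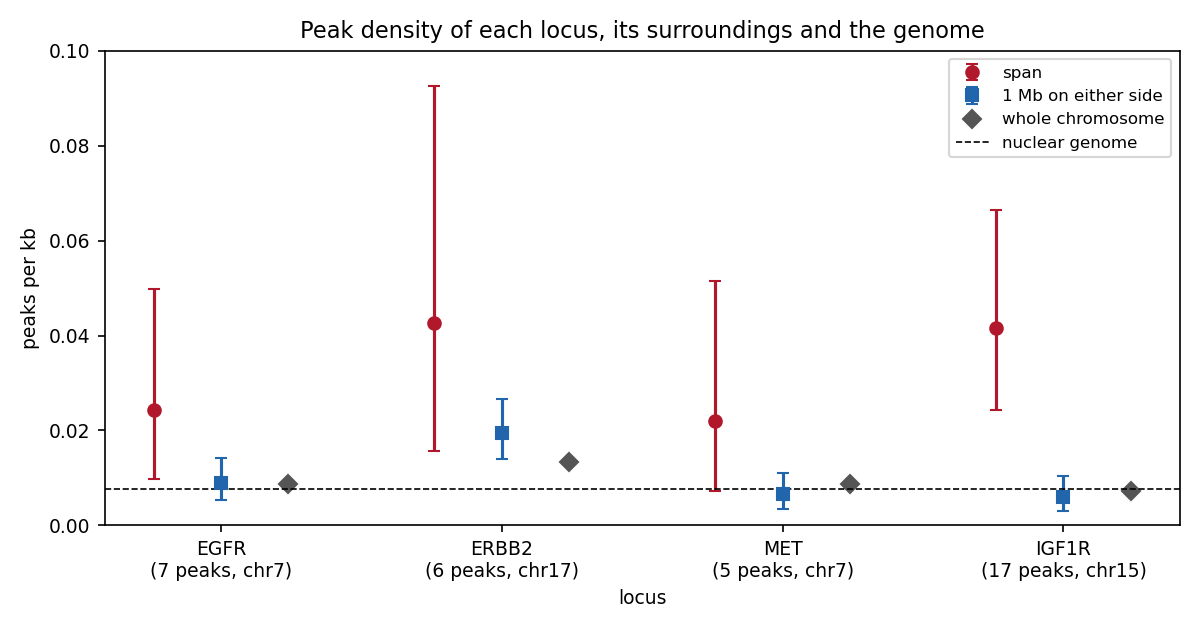
PROX1 peaks per kb for each receptor span (circles), for the 1 Mb on either side of it (squares) and for its whole chromosome (diamonds), with 95% Poisson intervals of the counts. The dashed line is the nuclear genome at 0.00760 per kb, which lies inside the MET interval and below those of the other 3 spans. These intervals count neighbouring peaks as independent.

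The nearest peaks outside the spans were close in some places and far in others. One at chromosome 7, 116044231 to 116044271 (17 tags, fold 17.04), lay 4.75 kb before the MET span, and one at chromosome 17, 35042591 to 35042631 (28 tags, fold 28.07), lay 5.39 kb before the ERBB2 span. After the IGF1R span the next peak, with 14 tags, was 11.5 kb away. On the other side of IGF1R no peak was listed for 615 kb. The remaining distances were 38.3 kb after and 137 kb before EGFR, 103 kb after MET and 180 kb after ERBB2.

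Within the spans, 25 peaks lay in the genes, 2 in the flanks before them and 8 in the flanks after them. The gene bodies held 0.0375 peaks per kb (95% Poisson interval 0.0243 to 0.0554), the downstream flanks 0.0400 (0.0173 to 0.0788) and the upstream flanks 0.0100 (0.00121 to 0.0361). The intervals overlap. IGF1R had 16 of its 17 peaks in the gene, against 12.8 by the share of its span that the gene takes up. MET had 4 of 5 in the gene, against 2.80, EGFR 4 of 7, against 4.58, and ERBB2 1 of 6, against 1.74. These counts were not tested, and the genes differ in length. After the gene, ERBB2 had 4 peaks and EGFR 3. No peak was listed in the upstream flanks of EGFR and MET or the downstream flank of IGF1R.

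IGF1R, with the longest of the 4 spans, carried the most PROX1 peaks and the longest run among them. Its 17 peaks held 463 tags, with a median of 22 (range 14 to 54). Joining peaks whose edges lay within 10 kb gave 9 places, of which 3 were runs of 2 or more and 6 were single peaks. The longest run lay inside the gene at 97104151 to 97107691, about 94 to 98 kb past the start, with 6 peaks in 3.54 kb and 227 tags, which is 49.0% of the tags of the span. Its first peak, 97104151 to 97104191, held 48 tags at a fold of 48.12, the highest fold at this gene. The other 5 peaks of the run lay within 1.60 kb of each other. Of these, 97107251 to 97107291 had the most tags at IGF1R, 54, but a fold of 18.04. At 97106091 to 97106131 there were 50 tags at a fold of 25.06, and 97107571 to 97107691 held 32 tags at a fold of 32.08. The remaining pair, at 97106771 to 97106831 and 97106991 to 97107031, held 22 and 21 tags, with folds of 22.05 and 21.05. Tags and folds thus ranked these peaks differently. Peaks so close together could be several sites or a single one, and which applies was not tested. Longer runs were listed elsewhere: of 4579 runs of 2 or more in the nuclear genome, joined within 10 kb, 149 held 7 peaks or more. Without the IGF1R run, the 11 other IGF1R peaks gave 3.54 times the genome rate.

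**Figure D4:**
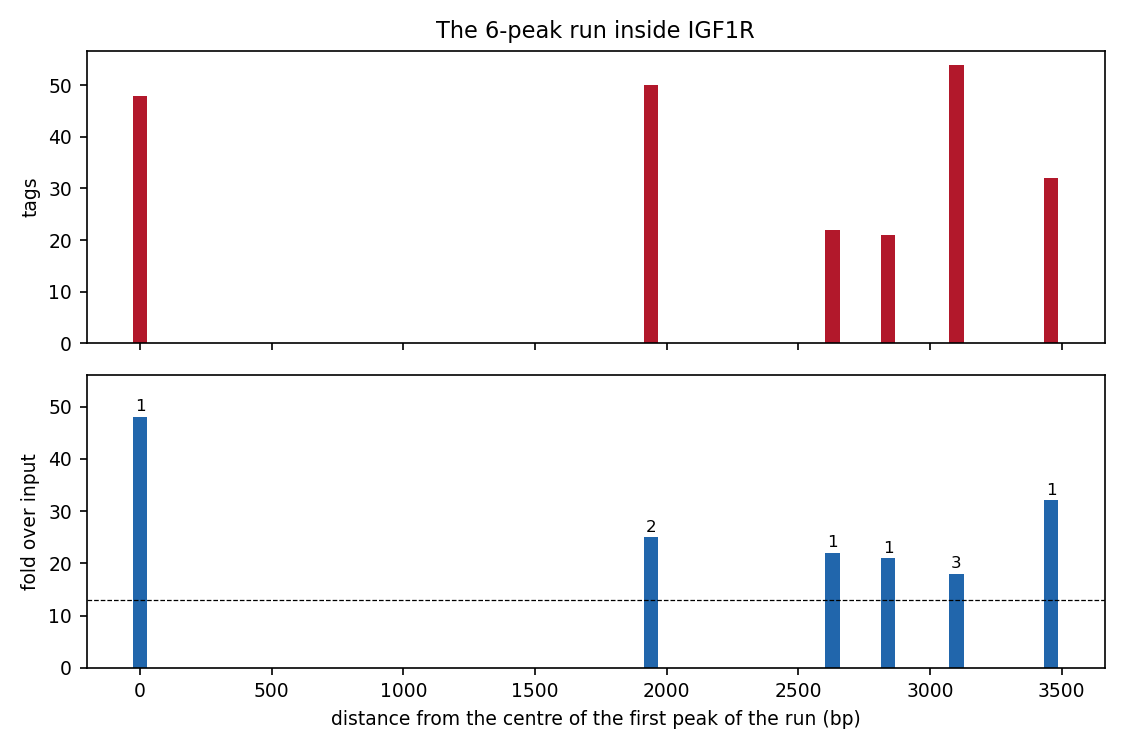
Tags (upper panel) and fold over input (lower panel) of the 6 peaks of the run inside IGF1R, by distance in bp from the centre of the first. Numbers over the lower bars are inferred input tags and the dashed line is the lowest fold of the list, 13.03. The first peak has a fold of 48.12, and the peak with 54 tags has 3 inferred input tags and a fold of 18.04.

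The rest of IGF1R held 11 peaks outside that run. The peak nearest to the start, 97007771 to 97007811, was among the weakest of the set, with 14 tags and a fold of 14.03. Further along the gene, a peak from 97234691 to 97234871 held 35 tags, with a fold of 35.09 and the greatest width of the 35 peaks, 180 bp. Another, from 97250971 to 97251111, held 25 tags at a fold of 25.06. The other 8 IGF1R peaks outside the run had 15 to 36 tags and folds of 15.04 to 22.05. They included a run of 3 at 97146331 to 97147051 with 73 tags. The longest stretch between IGF1R peaks was 58.5 kb.

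EGFR carried the single strongest PROX1 peak of the 4 loci. It lay inside the gene at 55123071 to 55123111, 69.1 kb past the start, with 109 tags and a fold of 109.27. Only 154 of the 23417 nuclear peaks had this fold or more, 11 of them among the 1386 on chromosome 7. The inferred input of this EGFR peak was 1, the lowest possible, so its fold was set by its tag count. Repeated copies of 1 molecule may be among these tags. The peak was a narrow one of 40 bp, stood alone within 10 kb, and held 43.4% of the 251 tags of the EGFR span. The other EGFR peaks had folds of 14.03 to 29.07, against a median of 19.05 over all nuclear peaks. In the gene, 55101031 to 55101071 held 20 tags at a fold of 20.05, and its neighbour, 55101931 to 55101991, held 14 tags at a fold of 14.03. The single peak from 55140411 to 55140451 held 29 tags at a fold of 29.07. No peak was then listed for 140 kb, which takes in the rest of the gene. The 3 peaks after the gene formed a run of 4.80 kb about 38 to 43 kb past its end. They were at 55280791 to 55280851 (21 tags, fold 21.05), 55281551 to 55281651 (40 tags, fold 20.05) and 55285551 to 55285591 (18 tags, fold 18.04). In the RefSeq gene order of GRCh38.p14, the next protein-coding gene after EGFR is LANCL2.

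ERBB2 had 5 of its 6 peaks outside the gene, which takes up 41.0 of the 141 kb. Inside the gene there was 1, at 35112751 to 35112811, with 14 tags and a fold of 14.03, 14.8 kb past the start used here. ERBB2 has further starts downstream of that one, which were not placed. Before the gene, 9.55 kb from that start, the peak from 35088431 to 35088471 held 70 tags, the most at this locus, but a fold of 17.54. The 4 peaks after the gene formed 2 close pairs. The first pair, about 10 to 11 kb past the end, was 35149031 to 35149151 (26 tags, fold 26.06) and 35149911 to 35149971 (14 tags, fold 14.03). The second, about 41 kb past the end, was 35179771 to 35179871 (26 tags, fold 26.06) and 35180011 to 35180051 (30 tags, fold 30.07). Thus the highest fold at ERBB2 lay in the downstream flank, not in the gene. ERBB2 sits in a gene-dense stretch: in GRCh38.p14 order PGAP3 is the protein-coding gene before it, and MIEN1 and GRB7, an adaptor protein of receptor tyrosine kinases, follow it. Which of these genes holds which peak was not determined, so the peaks of this span are not particular to ERBB2.

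MET had the fewest PROX1 peaks, and 4 of the 5 were strong, against 30.3% of all nuclear peaks. Strong peaks are those with a fold of at least 26.06, which is 2 times the lowest fold of the list. Of the strong MET peaks, 1 sat exactly on this limit. The exact binomial interval of the MET share, 28.4% to 99.5%, includes the share of the whole list. It counts the peaks of a close pair, given below, as independent, so it is too narrow. In the gene, the peak from 116134031 to 116134071, 35.1 kb past the start, held 34 tags at a fold of 34.08. The next, 116158091 to 116158131, held 28 tags at a fold of 14.03, the one weak peak of the locus. A close pair followed about 105 kb past the start, at 116203951 to 116203991 (31 tags, fold 31.08) and 116204071 to 116204131 (26 tags, fold 26.06). After the gene, 11.2 kb past its end, the peak from 116237151 to 116237191 held 35 tags at a fold of 35.09, the highest at MET. The tags of the strong MET peaks were close to one another, from 26 to 35. CAPZA2 is the next protein-coding gene after MET in GRCh38.p14 order, and CAV1, which encodes caveolin-1, the one before it.

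In strength, the receptor peaks had medians close to those of the whole list. The median tag count was 26 and the median fold 21.05, against 25 tags and a fold of 19.05 over all nuclear peaks. Strong peaks numbered 12 of 35, or 34.3% (exact binomial 95% interval 19.1 to 52.2), against 30.3% of all nuclear peaks. By locus the share was 4 of 5 at MET, 3 of 6 at ERBB2, 2 of 7 at EGFR and 3 of 17 at IGF1R. The intervals, 28.4% to 99.5% for MET and 3.80% to 43.4% for IGF1R, overlap, and both include the share of the whole list. Of the 12 strong peaks, 3 sat exactly on the limit, 2 at ERBB2 and 1 at MET. Tags in peaks per kb, which combine number and size, were 1.28 at ERBB2, 1.13 at IGF1R, 0.869 at EGFR and 0.678 at MET, against 0.287 in the genome. For all 4 spans together this was 3.43 times the genome value, and 3.07 times without the EGFR peak of 109 tags.

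Most receptor peaks had the lowest input that can be inferred. Input tags were inferred from the tags and the fold. They came out whole, within 0.02, for all 35 peaks, against 91.7% of all nuclear peaks. They were 1 for 29 peaks, which may stand for 0 or 1 tags, so the folds of these peaks were set by their tag counts. The other 6, or 17.1% (exact binomial 95% interval 6.56 to 33.6), had 2 or more, against 22.7% of all nuclear peaks. That 22.7% includes inferred inputs that are not whole, so the 2 shares are not fully alike. Of the 6 receptor peaks, 3 were at IGF1R and 1 each at EGFR, ERBB2 and MET. The highest inferred input, 4, belonged to the ERBB2 peak with 70 tags. More copies of a region would raise tags in both libraries, and the part of copy number in the peak densities was not tested.

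**Figure D5:**
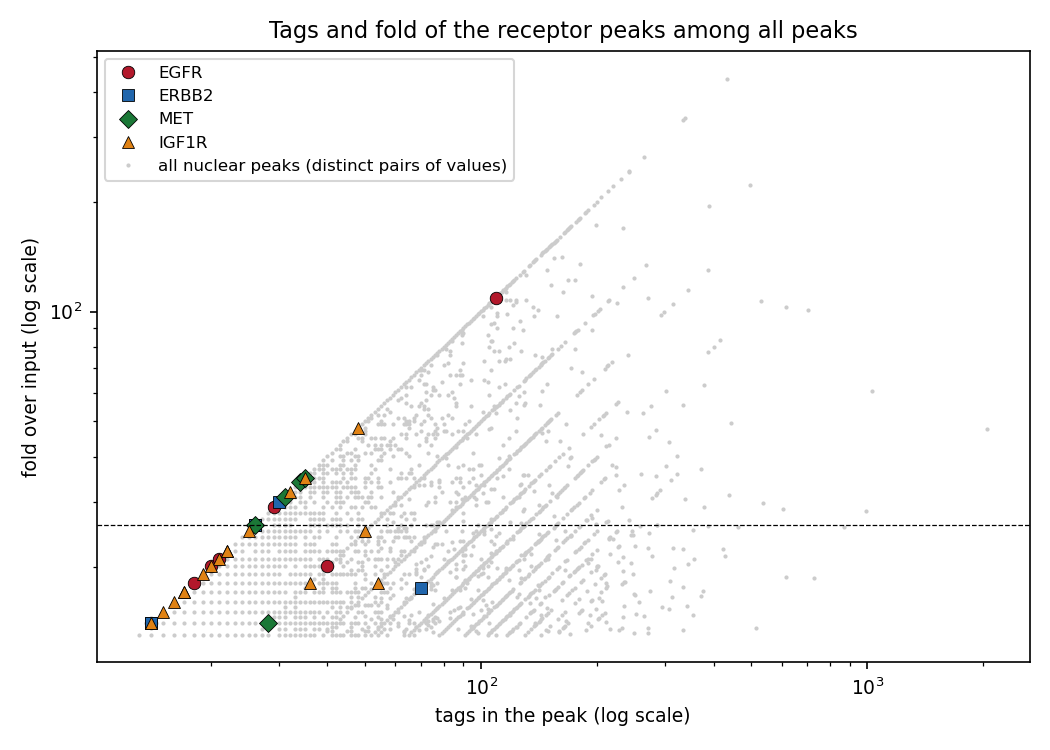
Tags in a peak (across, log scale) and fold over input (up, log scale) for the 35 receptor peaks, coloured by locus, and for all nuclear peaks in grey. The dashed line is the fold of 26.06. Receptor peaks on the upper diagonal have an inferred input of 1, and the 6 below it have 2 to 4.

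Of the 35 receptor peaks, 22 lay in runs joined within 10 kb, which is 62.9% (exact binomial 95% interval 44.9 to 78.5), against 56.6% of all nuclear peaks. Joined within 1 kb were 51.4% (34.0 to 68.6), against 33.1% of all nuclear peaks. The interval for 10 kb includes the share of the whole list, and the lower end for 1 kb, 34.0, is just above 33.1. A peak is joined only together with another, so peaks are not independent here and both intervals are too narrow. They cannot decide whether receptor peaks were joined more often than the list. Narrow peaks of 40 bp made up 60.0% of the receptor peaks (42.1 to 76.1) and 57.2% of the list.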

How the data were processed

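PROX1 ChIP and input libraries from SW480R cells were used, 1 of each. Per the labels' protocols, fixed chromatin was cut enzymatically and precipitated with 5 µg of antibody, and 10 ng of DNA went into each library. The series' design text states that 3 immunoprecipitations were pooled. Per the submitters' processing notes, the genome build was hg18. Not given in the sources used here are the aligner, the peak caller and its threshold, the scaling between libraries and their depths.

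Without a header in the list, its columns were read from their values. The deposited tag counts are whole numbers from 13 upward, not normalized. The deposited fold, from 13.03 upward, was read as a ratio of ChIP to input tags. Under this reading the inferred input was whole for 91.7% of nuclear peaks and not whole for the others. The deposited p-value reaches at most 0.00099, cannot be told from a q-value, and was not used. Only peaks are listed, so the level elsewhere could not be assessed.

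Peaks were assigned to a span by their centre. Rates used hg18 chromosome lengths from GenomeInfoDb 1.38.1 and contigs from IRanges 2.36.0, with exact Poisson intervals for counts and Clopper-Pearson intervals for shares. Tiles ran from each chromosome start and needed at least 50% placed sequence. Inferred input is tags times 1.0025 divided by the fold. Python 3.11.15, numpy 2.4.6, scipy 1.17.1, pandas 2.3.3 and matplotlib 3.10.9 were used, and counting steps were tested on simulated data. The 33 mitochondrial peaks were left out. Every peak was named at spans with few peaks, and at IGF1R the 5 highest folds, the longest run and the peak nearest the start. The members, lists and comparisons were chosen with earlier results of these data known. A list of other receptors, ligands, transducers and inhibitors was not placed, since no hg18 annotation was used here.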

Additional observations from a re-analysis of the deposited data

How the results depend on the processing

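Under each of the other settings tried, the peak rate stayed above that of the genome at all 4 receptors. They covered the threshold, joining of peaks within 1 or 10 kb, length without assembly gaps, the chromosome as the comparison, the width of the span and the overlap rule. Of 45 rates, 43 stayed within the counting interval of the reported value. The 45 include rates of the 4 spans together and the IGF1R rate without its longest run. The intervals are wide and the settings share peaks, so this count is a weak check. The 45 rates are given without intervals of their own, and many rest on 5 peaks or fewer. Several settings, such as the overlap rule and the length without gaps, count the same peaks as the reported rate. With strong peaks alone, MET stood at 7.64 times the genome rate on 4 peaks, against 2.90 times for all its peaks, and IGF1R at 3.18 times on 3 peaks, against 5.47. By construction these rest on fewer peaks. The rate of ERBB2 ranged from 3.18 times its chromosome to 9.23 times for strong peaks. That upper end rested on 3 peaks, of which 2 sat exactly on the limit for strong peaks. The ERBB2 rate rested on 1 peak when the flanks were left out (3.21 times). For all 4 spans together the range was 3.50 to 5.18 times. Without its longest run, an alternative chosen after seeing the data, IGF1R stood at 3.54 times. The median tag count of EGFR was 69 among its 2 strong peaks and 21 among all 7. The 2 runs of ERBB2 became 1 when peaks within 50 kb were joined. The 3 runs of IGF1R became 2 when peaks within 1 kb or within 50 kb were joined. With joining within 1 kb, the first peak of the longest IGF1R run stood apart, its centre 1940 bp from the next. No paired analysis was possible because there was 1 library of each kind. With 5 to 17 peaks per locus, the counts limit every comparison between receptors.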
